A study of Mus musculus with 15 samples.

Results

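Sensory neurons that supply muscle were compared after 2 kinds of injection into that muscle, CFA and acid. The comparison holds 6 of the 15 arrays of the study, 3 labelled as injected with CFA in the muscle and 3 labelled as injected with acid in the muscle, and covers 19938 genes. The members were taken by sample title, and the gene values played no part in that choice. Each array carried RNA from large neurons of the lumbar dorsal root ganglia, levels 2 to 5, on the injected side of C57BL/6 mice. All groups carried the same transgene, a green fluorescent reporter driven by the promoter of CGRP, the calcitonin gene-related peptide of pain-sensing neurons. Wheat germ agglutinin, a retrograde tracer, was injected 5 days ahead of tissue collection, and dissociated neurons above 26.9 µm were sorted by tracer and by reporter. The muscle arrays are labelled as CGRP-negative neurons. A saline muscle group of 3 arrays, with the same cell type and genotype, stands as the control of both treated groups and its values are given beside theirs. The paw groups, 3 CFA and 3 saline arrays of CGRP-positive neurons that project to skin, entered the estimate of the spread. The series describes the 3 samples of a group as biological replicates. The volumes, the pH, the interval after injection, the age and sex of the mice and the number of mice per sample were not given in the sources used here.

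CFA, complete Freund's adjuvant, is an oil emulsion of killed mycobacteria that draws immune cells into a tissue and leaves it inflamed for days. Acidic saline in a muscle lowers the pH around the nerve endings and is used as a model of muscle pain with little tissue damage. Muscle afferents detect protons through acid-sensing channels, among which Asic3 is the best known in muscle, and through Trpv1 and P2X receptors. They detect pressure and stretch through channels such as Piezo2. Inflamed tissue adds prostaglandins, cytokines and growth factors, each with its own receptor on the endings, and some of these signals are carried back to the cell body, where they can alter transcription.

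The values are log2 expression per probe set, and differences are CFA muscle minus acid muscle throughout. Genes with a mean at or under 2.45 are called dim, a limit set by the 95th percentile of 1190 olfactory and vomeronasal receptor genes, and 5892 genes were dim in both groups. The arrays had medians between 3.13 and 3.22 and SDs over genes between 1.28 and 1.55. The mean SD of the CFA muscle arrays exceeded that of the acid muscle arrays by 0.00211 (exact permutation test over the 6 arrays, two-sided p = 0.9), and the smallest p that 3 against 3 can give is 0.1. Acid muscle replicate 2 had the lowest SD, 1.28, and the lowest weight of the 6, 0.345. It also had the lowest mean correlation with its own group, 0.954. CFA muscle replicate 1 had an SD of 1.37 and a weight of 0.657. It correlated at 0.9758 with acid muscle replicate 1 and at 0.9716 and 0.9692 with its own group. In saline muscle, replicate 3 had the lowest SD, 1.34, and the lowest weight, 0.469. Acid muscle replicate 3 had the highest SD, 1.55, and stood high on neuronal genes, with Tubb3 at 9.04 against 6.58 to 7.12 on the other 5 arrays and Thy1 at 8.63 against 6.33 to 6.79.

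The labelled cell type was checked on marker genes over the 6 arrays. Neuronal genes were high, with Uchl1 between 8.20 and 9.42 and Prph between 7.75 and 8.31. Neurofilament genes of large myelinated cells were high as well, Nefl between 9.65 and 11.16 and Nefh between 8.83 and 9.60. Markers that the sort was meant to leave out were also measured well above the dim limit. Calcb, which encodes a form of CGRP, lay between 5.58 and 6.04, and Tac1, the substance P precursor, between 5.14 and 5.72. Mrgprd, a receptor of small non-peptidergic neurons of the skin, lay between 6.75 and 7.54, and the satellite glia genes Fabp7 and Apoe between 8.49 and 9.68 and between 8.95 and 10.79. Among macrophage genes Aif1 was at no more than 2.22 and Lyz2 at no more than 2.57, while Csf1r lay between 2.73 and 3.18 and C1qa between 2.46 and 2.87. Of the neutrophil genes Ly6g was at no more than 1.55 and S100a9 between 3.04 and 4.25. In bulk RNA of sorted cells, fewer cells of one type and less RNA per cell cannot be told apart.

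The CFA muscle arrays were not alike. Replicates 2 and 3 shared high values of a group of genes that replicate 1, the acid arrays and the saline arrays did not. Xist, the RNA that silences one X chromosome in female cells, was 3.29 and 3.35 there against 1.40 on CFA muscle replicate 1 and at most 1.93 on any of the other 13 arrays. Igf2, a growth factor of fetal tissue, was 5.70 and 6.27 against 2.75 on replicate 1. Cym, the milk-clotting protease chymosin, was 6.50 and 7.11 against 3.21. Hbb-y, an embryonic haemoglobin chain, was 3.45 and 3.10 against 1.80. The next highest array for Xist, Igf2, Cym and Hbb-y was acid muscle replicate 2, at 1.93, 4.15, 4.53 and 2.07. The sex of the mice was not given, and why these arrays differ was not tested.

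**Figure D1:**
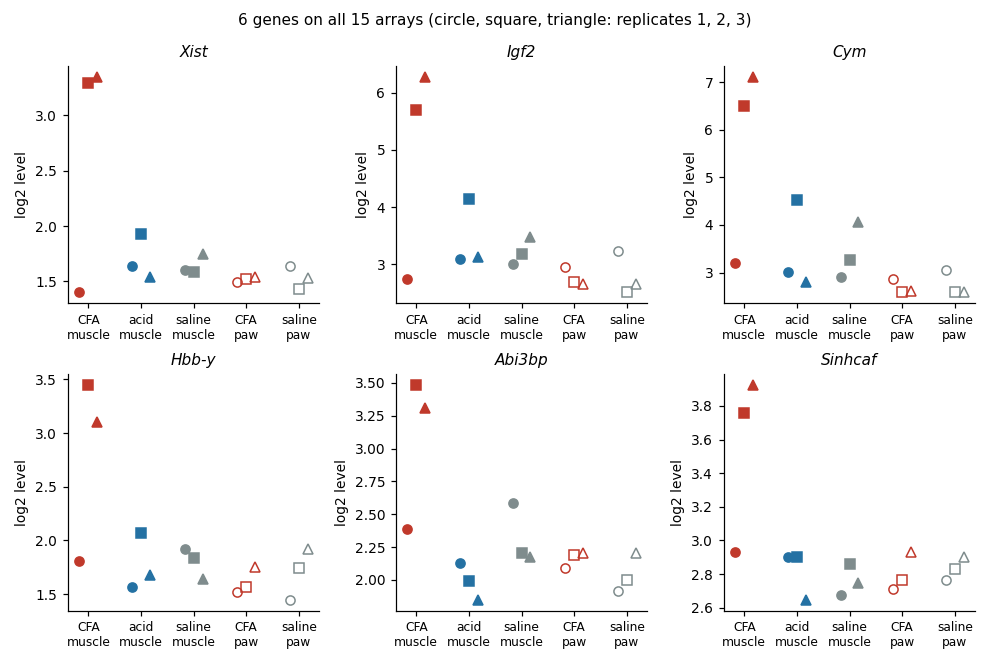
Log2 level of Xist, Igf2, Cym, Hbb-y, Abi3bp and Sinhcaf on all 15 arrays, grouped by label, with filled symbols for muscle and open symbols for paw, and 1 symbol shape per replicate number. CFA muscle replicates 2 and 3 stand above every other array in each panel, and CFA muscle replicate 1 does not share their high values.

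Lists of epithelial, cell division, imprinted growth and fetal genes were drawn up after this was seen, and the same 2 arrays had the highest mean level of the 9 muscle arrays in the first 3 of these lists. The mean level of 22 epithelial genes was 3.60 and 3.59 on CFA muscle replicates 2 and 3, 3.12 on replicate 1, between 3.13 and 3.34 on the acid arrays and between 3.03 and 3.25 on the saline arrays. The mean of 35 cell division genes was 2.84 and 2.90 on those arrays, 2.65 on replicate 1 and at most 2.74 on the acid arrays. Cldn6, a tight junction protein of embryonic epithelium, was 4.42 and 4.35 against 2.78 on replicate 1, and Foxa1, a transcription factor of endodermal tissue, was 4.04 and 4.34 against 3.00. Of the 22 epithelial genes, 20 had a higher mean in CFA muscle, with a median difference of 0.209, against -0.0274 over all genes. Of the 35 cell division genes, 27 did, with a median of 0.156. Of 22 imprinted growth genes 14 had a higher mean, with a median of 0.0937, and of 17 fetal liver and yolk sac genes 9, with a median of 0.0326. The mean level of the fetal liver and yolk sac genes did not set the 2 arrays apart, at 2.66 and 2.60 against 2.59 on replicate 1, 2.60 on acid muscle replicate 2 and 2.68 on saline muscle replicate 3. The source of these transcripts was not tested. For the genes and lists the results turn on, the range obtained when each of the 6 arrays is left out in turn is given beside the value.

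No gene passed the test between CFA muscle and acid muscle. The limma fit on all 15 arrays with Benjamini-Hochberg adjustment called 0 of 19938 genes at an adjusted p under 0.05 (0%), and the smallest adjusted p was 1. At an unadjusted p under 0.05 it held 626 genes (3.14%), of which 232 were higher in CFA muscle (1.16%) and 394 higher in acid muscle (1.98%). This was fewer than the 997 expected if no gene differed, though under some alternatives given below the count was above 997. The adjusted p of each gene named below is 1 unless another value is given. The comparison had a median SE of 0.186, so that the 95% interval of a typical gene reached 0.398 to either side of its difference, and 97.6% of genes differed by less than 0.5. Differences above 1 were found in 8 genes higher in CFA muscle and in 1 gene higher in acid muscle. That last gene was Macrod2, an enzyme that removes ADP-ribose from proteins. Its values were 4.06, 4.39 and 5.03 on the CFA arrays and 5.00, 5.61 and 6.32 on the acid arrays, which overlap. Of the 8 genes higher in CFA muscle only 1, Abi3bp, had CFA and acid arrays that did not overlap. Cym, Igf2, Abi3bp, Hbb-y and the imprinted growth gene Plagl1 were among the 8, each highest on CFA muscle replicates 2 and 3. Without CFA muscle replicate 1, 6 genes passed (0.0301%), each higher in CFA muscle, namely Xist by 1.61, Abi3bp by 1.41, Igf2 by 2.53, Hbb-y by 1.51, Cym by 3.36 and Sinhcaf by 1.03, with adjusted p from 0.000731 to 0.0177. Leaving out any other of the 6 arrays gave 0 genes.

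By a count that uses no model, the 3 CFA arrays all lay above the 3 acid arrays for 582 genes (2.92%) and all below them for 1043 genes (5.23%), together 1625 (8.15%). In random order, 3 against 3 arrays separate with a probability of 0.1, which is more than the share found. Among the 582, the saline mean lay nearer the acid mean for 282 and nearer the CFA mean for 300. Among the 1043 it lay nearer the acid mean for 454 and nearer the CFA mean for 588. Over all genes, 56.1% had a lower mean in CFA muscle and 43.9% a higher one. This excess of small negative differences depends on the scaling. The median difference was -0.0274 as deposited, -0.00494 after cyclic loess between arrays, -0.0061 after quantile normalization and 0.00422 with arrays centred on their medians. At an unadjusted p under 0.05, 562 genes were higher and 512 lower after cyclic loess, and 657 and 561 after quantile normalization. More genes stayed lower with array weights (488 higher, 754 lower) and with array SD as a covariate (695 higher, 910 lower). With cyclic loess, quantile normalization, array weights or array SD as a covariate, both directions together exceeded the 997 expected if no gene differed. The fit called 0 genes (0%) for CFA muscle against saline muscle and 0 genes (0%) for acid muscle against saline muscle. At an unadjusted p under 0.05 the first held 518 genes (2.6%), with 1.39% of genes higher in CFA muscle and 1.2% lower. The second held 568 genes (2.85%), with 1.79% higher in acid muscle and 1.06% lower. Each count lay below the 997 expected if no gene differed, and above it with array weights or with array SD as a covariate. Without CFA muscle replicate 1, 8 genes passed against saline muscle (0.0401%), the 6 named above with Foxa1 and Snord33. Both use the same saline arrays and so are not independent of each other.

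**Figure D2:**
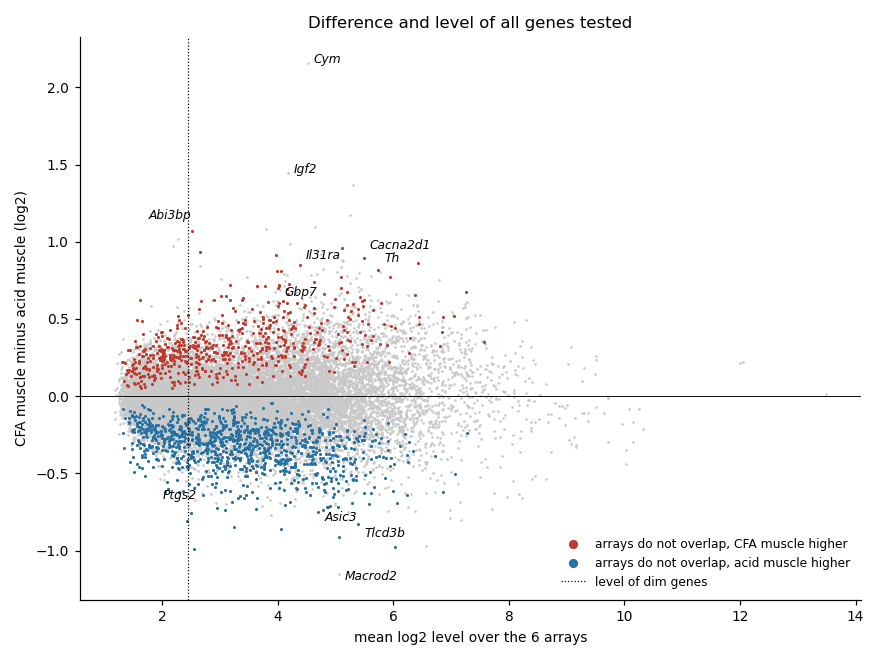
Difference between CFA muscle and acid muscle (log2) against the mean log2 level over the 6 arrays, 1 point per gene, with red for the 582 genes whose CFA arrays all lie above the acid arrays and blue for the 1043 genes with the opposite order. The dotted line is the dim limit of 2.45, and Cym and Igf2, the points farthest above 0 among those named, are genes whose arrays overlap.

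The 12 genes higher in CFA muscle with the smallest p were Abi3bp, Ttc6, Sfrp2, Ccdc138, Zbtb1, Ciao2a, Gbp7, Taf13, Sinhcaf, Arih2, Krt24 and Sgcd. Their differences ran from 0.44 in Zbtb1 to 1.07 in Abi3bp, and Taf13 was the only one of the 12 whose arrays overlapped. Abi3bp, a protein of the extracellular matrix, had values of 2.38, 3.49 and 3.31 on the CFA arrays, 2.13, 1.99 and 1.85 on the acid arrays and 2.58, 2.21 and 2.18 on the saline arrays. The difference was 1.07 ± 0.226 (SE), a factor of 2.10 (limma unadjusted p 0.000307, adjusted p 1), with a range of 0.86 to 1.41 when 1 array was left out. It was carried by CFA muscle replicates 2 and 3, while replicate 1 lay within the saline range. Sinhcaf, a subunit of a histone deacetylase complex, had the same shape, with 2.93, 3.76 and 3.93 against 2.90, 2.90 and 2.65 on the acid arrays. Krt24, a keratin of epithelium, was 3.01, 3.92 and 2.44 against 2.22, 2.30 and 2.05.

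A second kind of gene among the 12 was even across the CFA arrays and low on the acid arrays. Gbp7, a GTPase induced by interferon, was 4.28, 4.73 and 4.41 on the CFA arrays, 3.85, 3.77 and 3.35 on the acid arrays and 4.39, 4.39 and 4.38 on the saline arrays. Its difference was 0.81 ± 0.224 (SE), a factor of 1.75, and stayed between 0.66 and 0.91 when 1 array was left out. The CFA arrays of Gbp7 surrounded the saline arrays, and the acid arrays lay below both. Sgcd, delta-sarcoglycan of the dystrophin complex, was 3.56, 3.43 and 3.48 in CFA muscle, 2.87, 2.59 and 3.15 in acid muscle and 3.48, 3.89 and 3.20 in saline muscle. Again it was the acid arrays that were low, and the difference of 0.62 ranged from 0.48 to 0.76 with 1 array left out. Ciao2a, which helps to place iron-sulphur clusters in proteins, had the CFA arrays above both other groups, with 3.72, 3.40 and 3.20 in CFA muscle, 3.04, 2.60 and 2.74 in acid muscle and 3.08, 2.91 and 2.79 in saline muscle. Arih2, a ubiquitin ligase, was 4.70, 4.32 and 4.27 against 3.12, 3.39 and 4.02, a difference of 0.92 ± 0.259 (SE). A second probe set of Arih2 gave 0.43, and a second probe set of Taf13, a subunit of the general transcription factor TFIID, gave -0.07 where the one used gave 0.59.

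The 12 genes higher in acid muscle with the smallest p were Lce3b, Hebp2, Eid2, Furin, Tlcd3b, Akip1, Timm17b, Necab2, Ptgs2, Arrb2, Galnt9 and Tcl1b4. The arrays of none of them overlapped, and Lce3b was dim in both groups. Furin, the protease that cuts many precursors to their active form, neurotrophin precursors among them, was 3.54, 3.62 and 4.01 on the CFA arrays and 4.25, 4.26 and 4.45 on the acid arrays. Its saline values of 3.82, 3.95 and 3.98 lay below every acid array. The difference was -0.60 ± 0.151 (SE), a factor of 1.51, and ranged from -0.74 to -0.51 with 1 array left out. Arrb2, beta-arrestin 2, which ends signalling of many G protein-coupled receptors, the mu opioid receptor included, was 3.91, 4.08 and 3.87 against 4.16, 4.58 and 4.80, with saline at 4.31, 4.14 and 4.28. Here the saline arrays lay above the CFA arrays.

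Other genes of the acid side differed in which group departed from saline. Akip1, a partner of protein kinase A, was 2.06, 1.95 and 2.06 in CFA muscle, 3.38, 2.83 and 2.30 in acid muscle and 2.19, 1.80 and 1.90 in saline muscle. It was thus under the dim limit on every CFA and saline array and above it on 2 of the 3 acid arrays. Necab2, a calcium-binding protein of neurons, was 3.89, 4.16 and 4.16 in CFA muscle, 4.51, 4.58 and 4.46 in acid muscle and 4.06, 4.16 and 3.84 in saline muscle. The acid arrays were the high ones, by 0.44 ± 0.124 (SE) over CFA muscle and 0.49 over saline muscle. Timm17b, a part of the channel that imports proteins into mitochondria, was 4.05, 3.40 and 3.98 in CFA muscle against 4.30, 4.46 and 4.49 in acid muscle and 4.20, 4.33 and 4.39 in saline muscle, with the CFA arrays low. Hebp2, a haem-binding protein, lay in between, at 5.13, 5.45 and 5.19 in CFA muscle, 5.47, 5.51 and 5.62 in saline muscle and 5.87, 5.73 and 5.71 in acid muscle. Tlcd3b, a membrane protein linked to ceramide synthesis, had a difference of -0.83 ± 0.215 (SE), and acid muscle replicate 3, at 6.38, was its highest array. All 24 genes kept their direction under each of the 18 alternatives tried. For genes whose arrays do not overlap, leaving out or weighting arrays cannot turn the sign. Much of this outcome was therefore fixed by the choice of the genes.

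**Figure D3:**
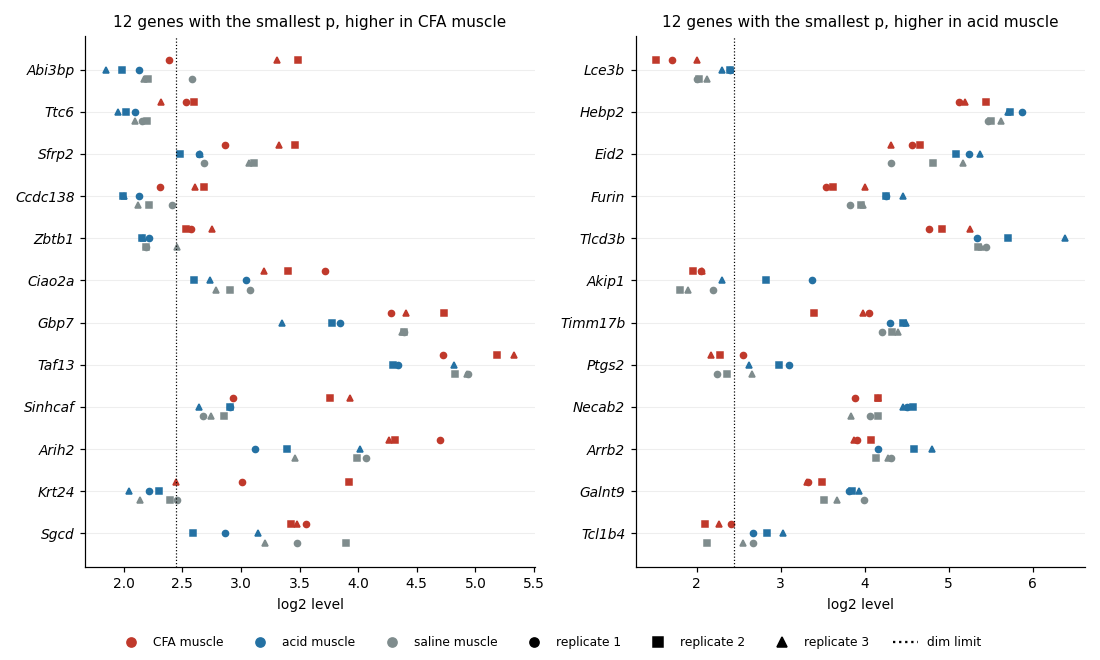
Log2 level on each muscle array of the 12 genes with the smallest p on either side, with red for CFA, blue for acid and grey for saline muscle, and 1 symbol shape per replicate number. The dotted line marks the dim limit of 2.45, and in 23 of the 24 genes the CFA and acid arrays do not overlap, the exception being Taf13.

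Of the sensory gene groups, the itch neuron markers had 4 members with separate arrays, all on the CFA side. Of 27 measured genes of non-peptidergic and itch neurons, 4 had CFA arrays all above the acid arrays, none the reverse, against 2.92% and 5.23% of all genes. Of the 27, 15 had a higher mean in CFA muscle and 12 a lower one. The share higher was 55.6%, against 43.9% of all genes. The same 4 had an unadjusted p under 0.05 with CFA higher, against 1.16% of all genes. The median difference of the list was 0.203, against -0.0274 over all genes, and it ranged from 0.0519 without acid muscle replicate 2 to 0.378 without CFA muscle replicate 1. The 4 genes were Il31ra, Osmr, Nppb and Cysltr2. Il31ra and Osmr encode the subunits that together form the receptor of interleukin 31, a cytokine of T cells that causes itch. Nppb encodes the peptide by which itch neurons signal in the spinal cord, and Cysltr2 a receptor of leukotrienes.

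Il31ra was 4.64, 4.86 and 4.93 on the CFA arrays, 3.95, 4.48 and 3.45 on the acid arrays and 4.65, 5.61 and 4.64 on the saline arrays. The difference of CFA from acid muscle was 0.85 ± 0.266 (SE; 95% interval 0.28 to 1.42), a factor of 1.80, and ranged from 0.59 to 1.11 with 1 array left out. The acid arrays lay below both other groups, with a difference of acid from saline muscle of -1.01 and of CFA from saline muscle of -0.16. Osmr followed the same order, with 5.13, 5.06 and 5.13 in CFA muscle, 4.71, 4.78 and 4.34 in acid muscle and 5.06, 5.69 and 5.10 in saline muscle. Its difference was 0.49 ± 0.215 (SE), with a range of 0.36 to 0.58. Cysltr2 was 2.52, 2.47 and 2.64 against 2.38, 2.01 and 1.68, so that the acid arrays were all under the dim limit. Nppb was 3.98, 3.98 and 3.72 in CFA muscle and 3.62, 3.39 and 3.30 in acid muscle, while its saline values of 3.48, 3.88 and 3.53 overlapped with the CFA arrays. The 4 genes were lower in acid muscle than in saline muscle by values from -0.19 in Nppb to -1.01 in Il31ra.

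Other markers of the same itch neurons did not share this order. Sst, somatostatin, was 5.37, 5.44 and 5.05 in CFA muscle and 5.05, 5.38 and 5.60 in acid muscle, a difference of -0.06 ± 0.225 (SE). Nts, neurotensin, differed by -0.40 ± 0.344 (SE) and Htr1f, a serotonin receptor, by -0.27 ± 0.215 (SE), both with a lower mean in CFA muscle and arrays that overlap. Sst, Nts and Htr1f were chosen for naming after the values of the other 4 had been seen. Mrgprd, at 6.75 to 7.54, and P2rx3, at 6.44 to 7.51, were the brightest markers of non-peptidergic cells. Mrgprd differed by 0.31 ± 0.232 (SE) and P2rx3 by 0.34 ± 0.309 (SE), while Mrgpra3, another such marker, differed by -0.20 ± 0.338 (SE).

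Markers of C-fibre touch neurons, which sense gentle stroking of hairy skin, included Th and Tafa4. Th, tyrosine hydroxylase, was 6.08, 6.12 and 6.26 on the CFA arrays, 5.75, 5.09 and 5.16 on the acid arrays and 5.82, 6.79 and 6.05 on the saline arrays. The difference was 0.82 ± 0.309 (SE), a factor of 1.76, with a range of 0.70 to 1.03 when 1 array was left out, and the acid arrays lay below both other groups. Tafa4, a secreted protein of these cells, was 3.74, 4.50 and 4.68 against 4.16, 3.77 and 3.14, a difference of 0.62 with arrays that overlap. Of the 13 measured markers 8 had a higher mean in CFA muscle (61.5%, against 43.9% of all genes) and 5 a lower one. In 2 of the 13 the CFA arrays all lay above the acid arrays, and in none below, against 2.92% and 5.23% of all genes. The median of the list was 0.12 and ran from 0.0308 without CFA muscle replicate 3 to 0.324 without CFA muscle replicate 1. Nppb was a member of this list as well.

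Asic3, the acid-sensing channel of muscle afferents, was 4.34, 4.12 and 4.53 in CFA muscle, 4.65, 4.98 and 5.62 in acid muscle and 5.47, 4.81 and 4.95 in saline muscle. The 3 CFA arrays lay below every acid and every saline array. The difference from acid muscle was -0.75 ± 0.347 (SE; 95% interval -1.49 to -0.00767), a factor of 1.68, and that from saline muscle was -0.74. Acid muscle differed from saline muscle by 0.01 in Asic3. With 1 array left out the difference between CFA and acid muscle ranged from -0.97 to -0.48, the smallest without acid muscle replicate 3. P2rx2, a channel opened by ATP whose response is raised by protons, was 3.00, 2.96 and 3.15 in CFA muscle, 3.19, 3.33 and 3.38 in acid muscle and 3.20, 3.23 and 3.55 in saline muscle. It thus had the same order at a smaller size, -0.26 ± 0.125 (SE).

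The rest of the acid sensors had arrays that overlap. Of 22 measured genes, 2 had acid arrays all above the CFA arrays, Asic3 and P2rx2, against 5.23% of all genes, none had the reverse order, and 14 had a lower mean in CFA muscle. The median was -0.06, with a range of -0.0979 to 0.00678 when 1 array was left out. Asic1 was 4.26, 4.62 and 3.90 against 4.42, 4.58 and 4.53, and Asic2 differed by 0.19 ± 0.252 (SE). Trpv1, the channel of heat, capsaicin and protons, was 4.15, 4.67 and 4.61 in CFA muscle and 4.54, 4.64 and 3.97 in acid muscle, a difference of 0.10 with a 95% interval from -0.638 to 0.83. Both treated groups had a lower Trpv1 mean than saline muscle, by 0.51 for CFA and 0.60 for acid, with saline arrays at 4.97, 5.40 and 4.59.

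Among 34 measured channels of mechanical sensing and their partners, 2 genes had separate arrays with CFA higher and 2 with acid higher, together a share near the 8.15% of all genes. The median was 0.0439, with a range of -0.0522 without CFA muscle replicate 2 to 0.102 without CFA muscle replicate 1. Piezo2, the main channel of touch and proprioception, was 6.35, 7.29 and 7.33 in CFA muscle, 6.48, 6.93 and 6.89 in acid muscle and 7.30, 7.32 and 6.47 in saline muscle. The difference was 0.22 ± 0.297 (SE; 95% interval -0.412 to 0.86). CFA muscle replicate 1, acid muscle replicate 1 and saline muscle replicate 3 were the low arrays, and the groups overlap. Piezo1 differed by 0.09 ± 0.247 (SE), and Tmem150c, a protein linked to slowly adapting currents, by 0.17 ± 0.241 (SE). Stom, stomatin, a membrane protein that binds acid-sensing channels, was 3.63, 3.25 and 3.24 in CFA muscle, 3.16, 2.73 and 2.85 in acid muscle and 2.78, 3.22 and 2.44 in saline muscle, so that the CFA arrays were the highest. Tmem63a, an osmotically sensitive channel, was 4.78, 4.87 and 5.09 against 4.64, 4.43 and 4.58. Trpc5, a cation channel linked to cold and pressure, was 2.19, 2.28 and 2.47 against 2.66, 2.84 and 2.63, near the dim limit.

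**Figure D4:**
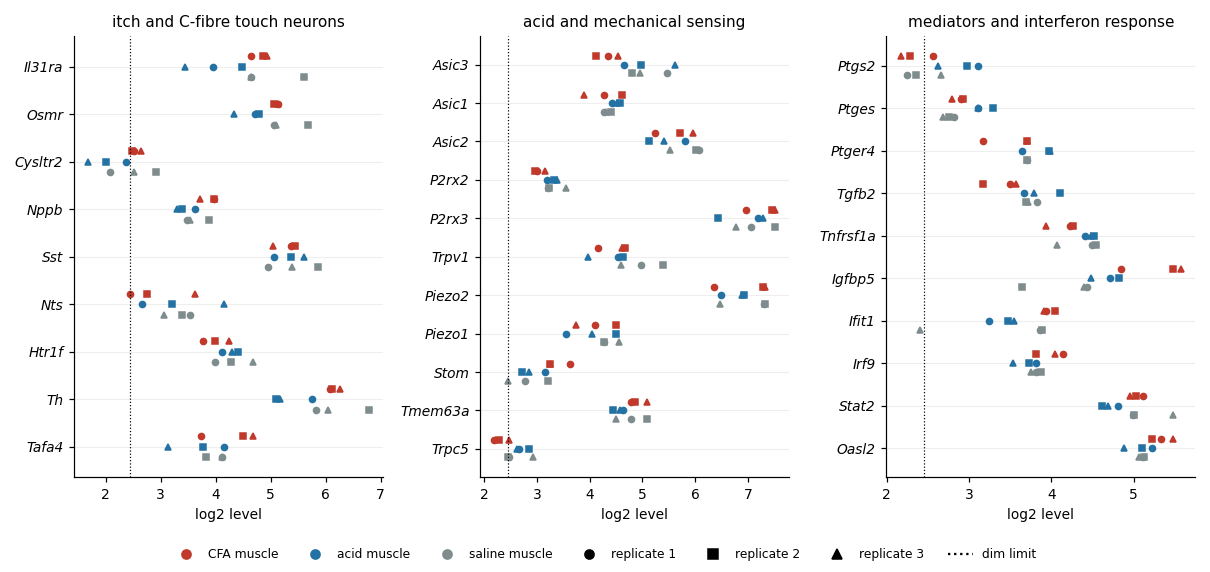
Log2 level on each muscle array of genes of itch and C-fibre touch neurons, of acid and mechanical sensing, and of mediators and the interferon response, with red for CFA, blue for acid and grey for saline muscle, and 1 symbol shape per replicate number. Il31ra, Osmr and Th show the acid arrays below both other groups, Asic3 shows the CFA arrays below both, and Ptges shows the acid arrays above both.

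Ptgs2 and Ptges, enzymes on the route to prostaglandin E2, a lipid that sensitises nociceptors, were 2 members of the cytokine list named by their p, and the route as a whole was not examined as a list. Ptgs2, cyclooxygenase 2, was 2.56, 2.28 and 2.17 in CFA muscle, 3.10, 2.98 and 2.62 in acid muscle and 2.24, 2.36 and 2.66 in saline muscle. The difference was -0.57 ± 0.158 (SE), a factor of 1.48, with a range of -0.71 to -0.46 when 1 array was left out, and the CFA and saline means were under the dim limit. Ptges, the synthase that acts after it, was 2.90, 2.93 and 2.79 in CFA muscle, 3.11, 3.29 and 3.11 in acid muscle and 2.82, 2.76 and 2.68 in saline muscle. Every acid array of Ptges lay above every other muscle array, at a difference of -0.29 ± 0.125 (SE). Acid muscle exceeded saline muscle by 0.48 in Ptgs2 and by 0.41 in Ptges. Ptger4, a receptor of prostaglandin E2, was 3.17, 3.70 and 3.70 against 3.64, 3.97 and 3.98, with arrays that overlap.

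Among cytokines and chemokines, 24 of 36 measured genes had a lower mean in CFA muscle, with a median of -0.0781, and 18 of the 36 were dim in both groups. The 3 members with separate arrays were Ptgs2, Ptges and Tgfb2, each higher in acid muscle, an order found in 5.23% of all genes. Tgfb2, a transforming growth factor, was 3.50, 3.17 and 3.56 in CFA muscle, 3.67, 4.10 and 3.79 in acid muscle and 3.82, 3.69 and 3.72 in saline muscle, so that here the CFA arrays were low. Of 47 measured receptors of inflammatory mediators, 3 had separate arrays with CFA higher, Il31ra, Osmr and Ptger1, and 7 with acid higher, among them Tnfrsf1a and Il6ra, against 2.92% and 5.23% of all genes. Ccr1, Cxcr2 and Htr2b, also among the 7, were dim in both groups. Tnfrsf1a, the main receptor of tumour necrosis factor, was 4.22, 4.26 and 3.93 in CFA muscle, 4.41, 4.52 and 4.48 in acid muscle and 4.49, 4.54 and 4.07 in saline muscle, a difference of -0.33 ± 0.146 (SE). Il6ra, a receptor of interleukin 6, was 3.76, 3.82 and 3.78 against 4.24, 4.29 and 3.97, and 1 saline array, at 4.23, lay in the acid range. The median of this list was 0.0106, with a range of -0.00739 to 0.0378.

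Interferon response genes had a higher mean in CFA muscle in 19 of 28 measured cases, against 43.9% of all genes. Of the 28, 5 had CFA arrays all above the acid arrays, against 2.92% of all genes, and none the reverse, and the median was 0.102 with a range of 0.0714 to 0.13 when 1 array was left out. The 5 were Ifit1, Irf9, Stat2, Mx1 and Oasl2, of which Mx1 was dim. Irf9 and Stat2 belong to the complex that carries the interferon signal to the nucleus, and Ifit1 and Oasl2 are antiviral effectors. Ifit1 was 3.93, 4.05 and 3.91 in CFA muscle, 3.24, 3.47 and 3.54 in acid muscle and 3.86, 3.88 and 2.41 in saline muscle. Saline muscle replicate 3 was its lowest array, and the difference was 0.54 ± 0.386 (SE). Irf9 was 4.14, 3.82 and 4.04 against 3.81, 3.73 and 3.53, and Stat2 5.11, 5.03 and 4.95 against 4.81, 4.62 and 4.68. Oasl2 was 5.33, 5.23 and 5.47 against 5.22, 5.10 and 4.88, with saline at 5.11, 5.12 and 5.06. For Stat2 the saline arrays, 4.99, 5.00 and 5.47, lay above the acid arrays and around the CFA arrays.

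Genes of nerve injury were divided. Atf3, the transcription factor that marks injured sensory neurons, was 6.12, 5.94 and 6.48 in CFA muscle, 6.64, 5.79 and 5.80 in acid muscle and 6.85, 6.65 and 5.41 in saline muscle. The arrays of all 3 groups overlapped. Sprr1a, a protein of regrowing axons, ran from 4.12 to 6.92 in CFA muscle and from 4.48 to 7.19 in acid muscle, with replicate 1 the lowest array of either group, and its SE was 0.847. Gal, galanin, differed by -0.22 ± 0.524 (SE). Cacna2d1, the calcium channel subunit to which gabapentin binds, was 5.63, 6.09 and 6.09 in CFA muscle, 5.24, 4.36 and 5.52 in acid muscle and 6.46, 5.94 and 5.15 in saline muscle. The CFA arrays were all above the acid arrays, by 0.89 ± 0.391 (SE) with a range of 0.56 to 1.13, and a second probe set gave 0.90. Of the 35 measured genes of the list, 22 had a lower mean in CFA muscle, with a median of -0.0772. Arrays were separate with CFA higher in 1 of the 35 and with acid higher in 1, against 2.92% and 5.23% of all genes. Socs3, higher in acid muscle, was 6.01, 6.35 and 6.15 in CFA muscle and 6.73, 6.43 and 6.42 in acid muscle. A second probe set of Socs3 gave 0.086 where the one used gave -0.357.

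Igfbp5, which binds insulin-like growth factors, was 4.84, 5.48 and 5.58 in CFA muscle, 4.72, 4.83 and 4.48 in acid muscle and 4.43, 3.64 and 4.40 in saline muscle. CFA muscle was the highest, by 0.63 ± 0.230 (SE; range 0.49 to 0.85 with 1 array left out) over acid muscle and by 1.15 over saline muscle, and acid muscle exceeded saline muscle by 0.52. CFA muscle replicate 1 lay just above the highest acid array, and replicates 2 and 3, the arrays with high Igf2, carried most of the difference. The part of those transcripts in Igfbp5 was not tested.

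Ion channels and transmitter receptors outside these groups gave a few separate genes. Of 49 potassium channels, 3 had separate arrays with CFA higher and 2 with acid higher, a share near the 8.15% of all genes. The median was -0.0693 and turned sign with 1 array left out, from -0.138 to 0.0103. The 3 with CFA higher were Kcna4, by 0.39, Kcnn1, by 0.32, and Kcnv1, by 0.61. Kcns1, a modifier of voltage-gated potassium channels in myelinated neurons, was 5.09, 5.45 and 5.70 in CFA muscle against 5.72, 5.71 and 6.03 in acid muscle. Kcnj3, the channel opened by G protein-coupled receptors, was 3.17, 4.18 and 3.83 in CFA muscle, 4.35, 4.08 and 4.43 in acid muscle and 4.43, 4.42 and 4.41 in saline muscle. Its CFA arrays overlapped the acid arrays and lay below all saline arrays. Chrnb4, a nicotinic receptor subunit, was 3.28, 2.92 and 3.58 against 3.86, 4.34 and 3.76, a difference of -0.73 ± 0.289 (SE). P2rx5, a receptor of ATP, was 2.88, 2.77 and 3.14 against 3.14, 3.33 and 3.50, where the lowest acid array lay just above the highest CFA array. Of 14 sodium channel genes, 2 had separate arrays, Scn3a and Scn2b, both with CFA higher, an order found in 2.92% of all genes, and Scn3a was dim in both groups. The median was 0.178 and ran from 0.0108 without acid muscle replicate 2 to 0.277 without CFA muscle replicate 1.

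Immediate early genes, which respond within minutes to activity, had a lower mean in CFA muscle in 23 of 31 cases, against 56.1% of all genes. The median was -0.201 and stayed between -0.31 and -0.0913 when 1 array was left out, the smallest without acid muscle replicate 1. The mean level of the list overlapped, at 4.67, 4.44 and 4.47 on the CFA arrays and 4.89, 4.39 and 4.68 on the acid arrays. Nr4a3 was 2.30, 2.30 and 2.12 in CFA muscle, 2.62, 2.53 and 2.78 in acid muscle and 2.25, 2.30 and 2.14 in saline muscle, with every acid array above all others. Its CFA and saline means were under the dim limit. Dusp5, a phosphatase that switches off ERK, was 4.21, 4.35 and 4.58 against 4.59, 4.79 and 5.45, and its saline arrays of 4.89, 4.34 and 5.46 overlapped both. Fos, the best known of the group, was 6.98, 6.34 and 6.28 in CFA muscle and 7.22, 5.74 and 7.13 in acid muscle, with overlap. Maff went the other way, at 3.39, 3.40 and 3.38 against 3.11, 3.31 and 2.79.

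In several lists the median depended on a single acid array. The satellite glia markers had a median of -0.15, and without acid muscle replicate 3 it was 0.0349. Of 33 markers of large myelinated neurons and proprioceptors, 28 had a lower mean in CFA muscle, with a median of -0.201, and without acid muscle replicate 3 the median was -0.00141. Of 67 respiratory chain genes, 52 had a lower mean, with a median of -0.212, and without acid muscle replicate 3 it was 0.065. The mean level of the respiratory chain genes was 6.65 on acid muscle replicate 3, 6.13 on replicate 1 and 5.50 on replicate 2, against 5.83 to 5.97 on the CFA arrays. Ndufa11, of complex I, had its highest value, 8.18, on that same acid array. Genes of heat shock and of the unfolded protein response had a median of 0.219, which was 0.00495 without acid muscle replicate 2, whose mean level over the list was 5.07 against 5.39 or more on the other 5 arrays. The chaperone Pdia6 was 5.49, 6.17 and 5.65 in CFA muscle and 5.39, 4.97 and 5.10 in acid muscle.

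Over the 38 gene lists, medians ran from -0.212 to 0.219. In 16 lists the median was above 0 and in 22 below, and with each array centred on its median 23 were above and 15 below, so the balance turns with the scaling. It stayed above 0 whichever of the 6 arrays was left out in 5 lists and below 0 in 7. The 5 were sodium channels, the interferon response, heat shock and the unfolded protein response, non-peptidergic and itch neurons, and C-fibre touch neurons. The 7 were cytokines and chemokines, microbial pattern sensing, nerve injury and regeneration, opioid and other inhibitory receptors, immediate early genes, large myelinated neurons and lymphocytes. After centring, the lymphocyte median was 0.00239, and the other 11 of these 12 lists kept their sign. Lists share members, and arrays of the same group enter each of them.

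**Figure D5:**
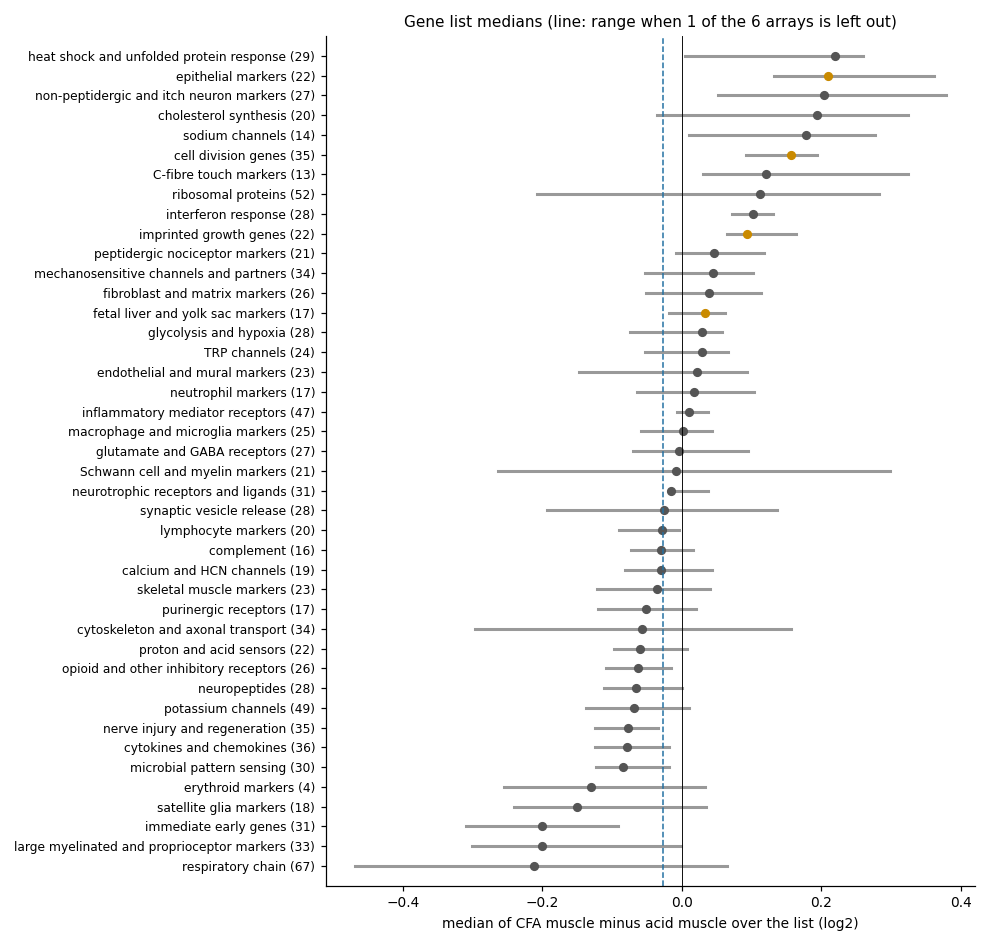
Median difference between CFA muscle and acid muscle (log2) for each gene list, with the number of measured genes in brackets, grey points for the 38 lists and orange points for the 4 lists added after the CFA muscle arrays were examined. The grey line spans the medians obtained when 1 of the 6 arrays is left out, and the dashed line is the median of all genes, -0.0274, so that wide lines such as those of the respiratory chain and ribosomal protein lists mark medians that turn with 1 array.

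Immune cell genes were mostly dim. The medians were 0.00184 for 25 macrophage genes, 0.0177 for 17 neutrophil genes and -0.0292 for 20 lymphocyte genes, and 15, 12 and 11 of them were dim in both groups. The mean level of the macrophage list was 2.26 to 2.31 on the CFA arrays and 2.25 to 2.43 on the acid arrays. Cd3d, a T cell receptor chain, was 2.48, 2.38 and 1.99 against 2.81, 3.42 and 2.38, with overlap. Glial genes varied more within a group than between groups. The mean over 21 Schwann cell and myelin genes ran from 4.56 to 5.52 in CFA muscle and from 4.33 to 5.49 in acid muscle, and Mbp, myelin basic protein, was 7.05, 5.92 and 5.13 in CFA muscle and 6.61, 4.26 and 6.39 in acid muscle. Over 23 endothelial genes the range was 3.15 to 3.57 in CFA muscle and 3.09 to 3.75 in acid muscle, and over 18 satellite glia genes 4.96 to 5.11 and 4.78 to 5.24. The part of these cells in the differences given above was not tested.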

How the data were processed

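RNA from sorted neurons was amplified from 50 ng, labelled with biotin and hybridised to Affymetrix whole-transcript arrays, per the labels' protocols. The authors deposited 1 log2 value per probe set and array. RMA and Partek are named in the submitters' processing notes, without versions, and the log base was taken from the range of the values. Genome build and array dates are not given in the sources used here. Of 35556 probe sets, 21789 had 1 gene symbol, 1621 had several and 12146 had none. Where several probe sets shared a gene (999 genes), the brightest on average over the 15 arrays stood for it, and 19938 genes were tested. No gene was removed for low signal.

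Group means of the 5 groups were fitted to all 15 arrays with limma 3.58.1 in R 4.3.3 (10 residual degrees of freedom, prior 4.325), with two-sided tests, Benjamini-Hochberg adjustment over all genes and a threshold of 0.05. Intervals come from the same fit. The number of arrays limits the precision, and p-values measure only the spread between these samples.

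The 38 gene lists name 1063 genes, of which 947 were measured, and are described by counts and medians with no set test. The members and lists were chosen with earlier results of these data known. Named genes are the 12 with the smallest p on each side, leaving out predicted loci, receptor clusters and small RNAs, up to 3 with the smallest p per list, and a fixed set of sensory and injury genes. Other genes, and the 4 added lists, were chosen after their values were seen. Alternatives covered scaling, array spread, array weights, dim genes, the arrays fitted, the prior, the probe sets of a gene, the threshold, the replicate number and each array left out.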

Additional observations from a re-analysis of the deposited data

How the results depend on the processing

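With 3 arrays a group, only differences well above the median SE of 0.186 could pass. CFA muscle against acid muscle gave 0 genes (limma, adjusted p under 0.05) under every alternative but the removal of CFA muscle replicate 1, with a range of 0 to 6 over the arrays left out. CFA muscle against saline muscle ranged from 0 to 8, the 8 again without CFA muscle replicate 1, and acid muscle against saline muscle gave 0 throughout. Counts at an unadjusted p under 0.05 were 626, 518 and 568, each below the 997 expected if no gene differed. With array weights or with array SD as a covariate, all of these counts exceeded 997. For CFA muscle against acid muscle the count also exceeded 997 after cyclic loess and after quantile normalization. Same-numbered CFA and acid arrays correlated at -0.00489, -0.207 and 0.0971 in their deviations from the group means, so the numbers were not taken to pair the samples, and the replicate block also gave 0 genes, with 206 higher and 371 lower at an unadjusted p under 0.05. The 24 genes with the smallest p kept their direction in all 18 alternatives, and 12 of the 21 fixed genes did. The 24 were chosen by their p on these same arrays, so these counts cannot be compared. With array weights the sign turned for Kcnk4 (0.202), Kcnk18 (-0.055), Atf3 (-0.107) and Sprr1a (0.569), and with cyclic loess and array weights, an alternative added after seeing the data, they were 0.218, -0.036, -0.086 and 0.602. The cause was not tested. With 1 array left out, the range spanned 0 for Piezo1 (-0.154 to 0.319), Stoml3 (-0.233 to 0.105), Trpa1 (-0.039 to 0.778), Trpv1 (-0.111 to 0.258), Trpc1 (-0.241 to 0.035), Kcnk4 (-0.339 to 0.112), Kcnk18 (-0.065 to 0.166), Atf3 (-0.046 to 0.386) and Sprr1a (-1.234 to 0.416). The difference in array SD ranged from -0.0714 to 0.0639.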

Other observations

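Of the gene groups given here, all but the opioid and other inhibitory receptors had medians that turned sign when 1 array was left out. Of 20 genes of cholesterol synthesis, 14 had a higher mean in CFA muscle, with a median of 0.194 that was -0.0358 without acid muscle replicate 2. Of 52 ribosomal protein genes 32 did, with a median of 0.112 that ran from -0.208 without acid muscle replicate 2 to 0.282 without acid muscle replicate 3. Of 34 genes of the cytoskeleton and axonal transport, 24 had a lower mean in CFA muscle, with a median of -0.0571 and a range of -0.296 to 0.156. Neuropeptide genes had a lower mean in CFA muscle in 19 of 28 cases, with a median of -0.0653 that was 0.000652 without acid muscle replicate 3 and -0.111 without acid muscle replicate 1. Opioid and other inhibitory receptors had one in 16 of 26, with a median of -0.0627 that stayed between -0.109 and -0.0159. The 26 fibroblast and matrix genes had a higher mean in CFA muscle in 18 cases, with a median of 0.0394 and a range of -0.0515 to 0.114, and the 23 skeletal muscle genes a lower mean in 14 cases, with a median of -0.0353 and a range of -0.121 to 0.04.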
